A study of Bos taurus with 18 samples.

Results

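The complement genes described here are 10 genes of complement activation and the terminal pathway, C1R, C2, MBL2, CFB, C3, C5, C6, C8A, C8B and C9. They were taken by name as the probe sets of the array to which the platform annotation gives exactly that symbol and no other. Each of the 10 genes had 1 such probe set, so 10 of the 24333 probe sets in the table are described. All 10 passed the filter on dim probe sets, which used the mean over all 18 arrays and not the groups.

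Liver biopsies were taken 1 week after calving from 18 multiparous Holstein cows, and total RNA of each cow was hybridised to 1 Bovine Gene 1.0 ST array (Affymetrix). The 9 control cows were fed total mixed rations of corn and grass silage. The 9 niacin cows ate the same rations with added rumen-protected niacin (NiaShure), which is coated so that part of it passes the rumen intact. The dose was 79 mg/kg body weight, beginning 3 weeks ahead of the expected calving. By the labels' estimate 47 mg/kg reached the duodenum and 31 mg/kg could be absorbed, and no age or number of calvings is given per cow. Values are log2 expression per probe set, so a difference of 1 is a doubling. Precision is limited by the number of arrays.

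Complement is a cascade of plasma proteins, most of them made in hepatocytes, that marks microbes and lyses membranes. It starts on antibody (classical pathway), on sugars bound by lectins (lectin pathway) or directly on surfaces (alternative pathway). All routes meet at the cleavage of C3, after which C5 is cleaved and C5b, C6, C7, C8 and C9 assemble into the membrane attack complex. Several complement genes are acute phase genes, whose transcription in liver responds to inflammatory cytokines.

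Array medians lay between 5.57 and 5.72 and array maxima between 13.97 and 14.04. The tissue label was checked on 8 hepatocyte markers, all of which passed the filter and among which ALB was highest at a mean of 13.45 and ASGR1 lowest at 10.28. The SD of an array over all its probe sets ran from 1.93 to 2.03. Red cell markers stood apart in niacin 8, where their mean was 7.23 against 4.96 to 5.26 in the other niacin cows. RNA of a biopsy comes from all its cells, so fewer cells of a type and less RNA per cell cannot be told apart.

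None of the 10 genes passed an adjusted p of 0.05 between niacin and control cows, and their median log2 difference was 0.0039 against 0.011 over all 18250 tested probe sets. Of the 10, 5 were above 0, 4 below 0 and C3 exactly at 0. In the limma fit over all tested probe sets, 0.0% of probe sets passed after Benjamini-Hochberg adjustment, and 1 of the 10 genes (C6) had an unadjusted p under 0.05, against 7.74% of all tested probe sets (3.34% higher and 4.41% lower with niacin). The exact permutation test over all 48620 splits of the cows likewise gave 1 of 10, here C8B, against 7.53% of all probe sets. No gene separated the groups without overlap, nor did any tested probe set (0.0%). From cow to cow the 10 genes varied together, and 24 of their 45 pairs were correlated past an adjusted permutation p of 0.05.

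**Figure D1:**
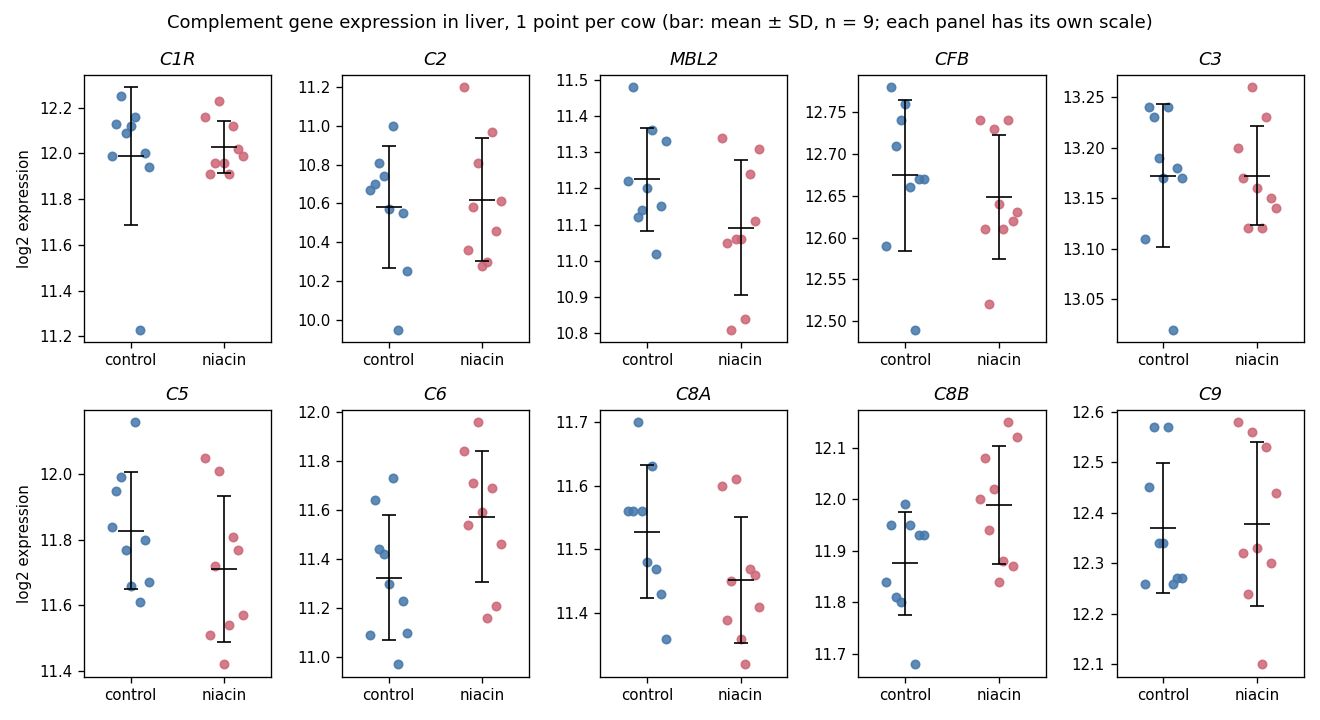
Log2 expression of the 10 complement genes in each cow, control in blue and niacin in red, with the mean and SD of 9 cows as a bar and whiskers. The groups overlap in every panel, and control 36 is the lowest point for C1R, C2, CFB, C3, C6 and C8B.

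Among the genes that start the cascade, neither the proteases nor the lectin differed detectably between groups. C1R (probe set 12859128) encodes a serine protease that is activated when C1 binds antibody. It ran from 11.23 through a median of 12.09 to 12.25 in control cows and from 11.91 through 11.99 to 12.23 in niacin cows. Apart from control 36 at 11.23, the controls began at 11.94, so the groups covered nearly the same range. The means were 11.99 ± 0.30 (SD, n = 9) and 12.03 ± 0.11, a log2 difference of 0.04 with a 95% interval of -0.18 to 0.25 (limma adjusted p = 0.958). Without control 36 the control SD was 0.10 and the difference -0.06, so its sign rests on that cow.

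C2 (12805720) encodes the protease that supplies the catalytic part of the C3 convertase of the classical and lectin pathways. It was lowest at 9.95, at a median of 10.67 and highest at 11.00 in controls, against 10.28, 10.58 and 11.20 in niacin cows. Control 36 was again the lowest cow and niacin 3 the highest, 2.38-fold apart, the widest spread of the 10 genes on this scale. The difference was 0.04 (interval -0.25 to 0.32; limma adjusted p = 0.969), and -0.04 without control 36.

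MBL2 (12818891) encodes mannose-binding lectin, which recognises sugars on microbes. Control cows ran from 11.02 through 11.20 to 11.48 and niacin cows from 10.81 through 11.06 to 11.34. The 2 lowest values, 10.81 and 10.84, belonged to niacin 8 and niacin 19, and 6 of 9 niacin cows were below the control median. The log2 difference of -0.13 had an interval of -0.30 to 0.04 (limma adjusted p = 0.726; exact permutation p = 0.111). With the mean of all leukocyte markers as a covariate it was -0.08. CFB (12805551), the protease of the alternative pathway convertase, ran from 12.49 through 12.67 to 12.78 in controls and from 12.52 through 12.63 to 12.74 in niacin cows. The groups covered the same range, with a difference of -0.03 (-0.14 to 0.09; limma adjusted p = 0.950). It was -0.05 without control 36, -0.01 without niacin 8 and -0.06 with the log2 value of HP, the haptoglobin gene, as a covariate.

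C3 (12876698), the protein on which all 3 routes act, had the same mean in both groups, 13.17, with an SD of 0.071 in control and 0.049 in niacin cows (n = 9 each). Control values ran from 13.02 through 13.18 to 13.24 and niacin values from 13.12 through 13.16 to 13.26. The interval of the difference, -0.11 to 0.11, leaves room for a change of that size on either side (limma adjusted p = 1). Only 0.0438% of tested probe sets had a smaller or equal SD over the 18 cows. CFB was at 0.285% on the same ranking, C8A at 1.80% and C8B at 4.01%. C3 lay within about 1 log2 unit of the array maxima, and whether signal near the top of the array is compressed was not tested.

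C5 (12893450), whose cleavage opens the terminal pathway, ran from 11.61 through 11.80 to 12.16 in controls and from 11.42 through 11.72 to 12.05 in niacin cows. Of the niacin cows, 6 of 9 were below the control median, and 4 were below the lowest control. The difference was -0.12 (interval -0.31 to 0.08; limma adjusted p = 0.810). It was -0.08 without control 23 and -0.20 with HP as a covariate.

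C6 (12785330), which binds C5b as the first step of membrane attack complex assembly, had the largest difference among the 10 genes. Control values ran from 10.97 through 11.30 to 11.73 and niacin values from 11.16 through 11.59 to 11.96. The groups overlapped widely, although the control median was exceeded in 7 of the 9 niacin cows. Means were 11.32 ± 0.26 and 11.57 ± 0.27 (SD, n = 9 each), a log2 difference of 0.25 ± 0.12 (SE; interval 0.01 to 0.49), or 1.19-fold. The limma p was 0.0442 unadjusted and 0.637 adjusted over all tested probe sets, and the exact permutation p was 0.0633. On leaving out 1 cow the difference ran from 0.20 (without niacin 14) to 0.30 (without niacin 19), and the unadjusted limma p from 0.0152 to 0.0952. Without niacin 8 it was 0.23, with a p of 0.0708. With the log2 value of HP as a covariate the difference was 0.04, and with the mean of all leukocyte markers it was 0.16, which is smaller by over 1.5 times in each case. It was 0.25 with the SD of the array as a covariate and 0.27 with array weights. In the same cows the log2 difference of HP, which encodes the acute phase protein haptoglobin, was 1.51. The part of HP or of leukocytes in the C6 difference was not tested.

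The C8 protein joins an alpha, a beta and a gamma chain, and the genes of the first 2 did not lie on the same side of 0. C8A (12845632) ran from 11.36 through 11.56 to 11.70 in controls and from 11.32 through 11.45 to 11.61 in niacin cows, with 7 of 9 niacin cows below the control median. Its log2 difference was -0.08 (interval -0.20 to 0.05; limma adjusted p = 0.813; exact permutation p = 0.140), and it was -0.12 with HP as a covariate. C8B (12838095) ran from 11.68 through 11.93 to 11.99 in controls and from 11.84 through 12.00 to 12.15 in niacin cows. Of the niacin cows, 5 lay above the highest control (niacin 3, 7, 14, 33 and 40). The difference was 0.11 (interval -0.02 to 0.24), with an exact permutation p of 0.0416 that was 0.644 after adjustment over all probe sets, and a limma p of 0.0873 (adjusted 0.699). Whether C8A and C8B differ in their response to niacin was not tested.

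C9 (12785905), which polymerises into the pore, ran from 12.26 through 12.34 to 12.57 in controls and from 12.10 through 12.33 to 12.58 in niacin cows. In both groups 3 or 4 cows lay at 12.44 or above, and the difference was 0.01 (interval -0.15 to 0.16; limma adjusted p = 0.991).

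**Figure D2:**
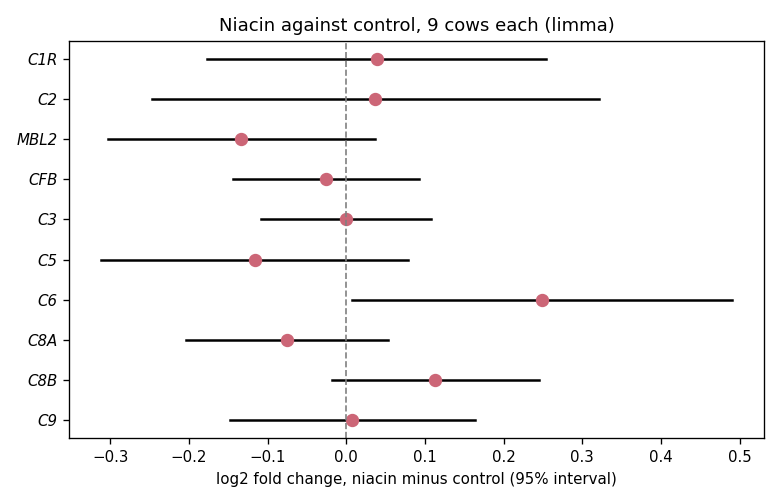
Log2 fold change of each complement gene, niacin minus control, as a point with its 95% interval from limma, 9 cows a group. The interval of C6 starts at 0.01, and those of the other 9 genes include 0.

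Of 26 other listed complement genes, 25 had a probe set, with a median log2 difference of 0.067. At an unadjusted limma p under 0.05, 4 of the 25 were higher and 1 was lower with niacin, against 3.34% and 4.41% of all tested probe sets, and 0 passed adjustment over all of them. C4BPB, which encodes a chain of the inhibitor C4b-binding protein, had the smallest p (-0.57, limma adjusted p = 0.453). CD59, which blocks the membrane attack complex on host cells, was at 10.17 ± 0.17 in control and 10.46 ± 0.30 in niacin cows (0.30, limma adjusted p = 0.531). C1QB and C1QA, chains of the recognition unit of C1 that are made mostly by macrophages, were at 0.31 each (limma adjusted p = 0.562 and 0.576). Over the 9 macrophage markers, the mean ran from 7.67 to 8.07 in controls and from 7.68 to 8.53 in niacin cows. CD5L was the highest of these markers at 10.66 and VSIG4 the lowest at 6.35, and the part of macrophages in the C1Q values was not tested.

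The direct partners of the 10 genes showed no called difference either. C1S, the protease cleaved by C1R, was at 12.18 ± 0.11 in control and 12.20 ± 0.10 in niacin cows (SD, n = 9 each). C8G, the gamma chain of C8, was at 10.51 ± 0.12 and 10.30 ± 0.31, a difference of -0.21 (interval -0.43 to 0.02). C7, which joins the complex after C6, was at 7.28 ± 0.83 and 7.47 ± 0.65. MASP1 and MASP2, the proteases that travel with mannose-binding lectin, differed by 0.13 (-0.10 to 0.36) and -0.27 (-0.56 to 0.03).

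Among 16 measured acute phase genes, 3 were higher and 0 lower with niacin at an unadjusted limma p under 0.05, against 3.34% and 4.41% of all tested probe sets. After adjustment over all of these, 0 passed. HP ran from 8.37 through 10.56 to 12.67 in controls and from 9.12 through 12.36 to 12.78 in niacin cows (limma adjusted p = 0.532). ITIH4 was at 0.39, SAA3, a serum amyloid A gene, at 1.30, and LRG1 at 0.20, with adjusted p between 0.546 and 0.645. Of 11 measured regulators of these genes, 0 had an unadjusted limma p under 0.05. SOCS3, an inhibitor of cytokine signalling through STAT3, had the smallest p at a log2 difference of 0.31 (-0.10 to 0.72), followed by the bile acid receptor gene NR1H4 at -0.08.

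Across cows, the 10 genes moved together. Over 18 cows, 44 of the 45 pairs had a Pearson's r above 0, with a median of 0.55 and a range of -0.12 to 0.87. By a two-sided permutation test with 100000 resamples, adjusted over the 45 pairs, 24 pairs (53.3%) passed by Pearson's r and 28 by Spearman's rho, the 24 among them. For comparison, an r at or above the smallest called one, 0.55, was reached in 2.78% of the correlations of these genes with all other tested probe sets. With the 348 other probe sets at least as bright as the dimmest of the 10 genes it was 6.93%. Those other probe sets were centred near 0, with median r of -0.015 and 0.0010. The relation held within groups: the median r was 0.66 among the 9 control cows and 0.69 among the 9 niacin cows, and 13 and 15 pairs passed the exact permutation test after adjustment.

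**Figure D3:**
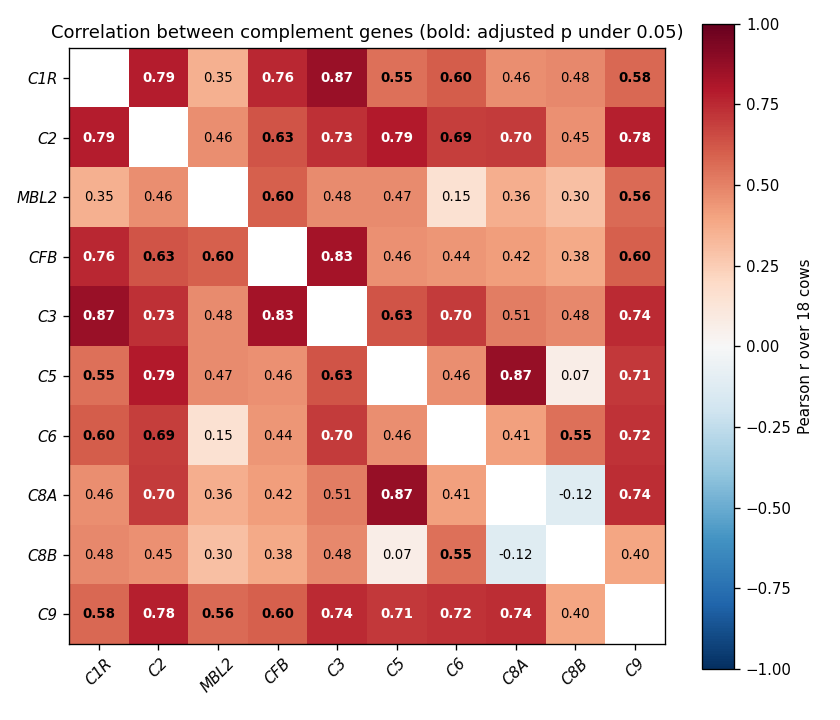
Pearson's r over 18 cows for each pair of the 10 complement genes, red above 0 and blue below 0, with pairs past an adjusted permutation p of 0.05 in bold. C3 with C1R and C5 with C8A are darkest at 0.87, and C8A with C8B is the single pair below 0.

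The same cows were high or low in most genes. Control 11 and niacin 3 were above the 18-cow median in 10 of 10 genes, and control 23, niacin 14 and niacin 33 in 9. Control 36 and niacin 19 were above it in 0 of 10, and control 36 was the lowest of all cows in 6 genes. Both groups thus held cows at either end. The SD of the array was 1.926 in control 36 and 1.939 in niacin 19. It was 2.029 in niacin 14, 2.019 in niacin 3 and 2.017 in control 11. Control 1 had an array SD of 2.025 with 4 of 10 genes above the median. The part of the array SD in this order of cows was not tested. The mean deviation over the 10 genes ran from -0.29 in control 36 to 0.21 in niacin 3, and without control 36 there were 23 called pairs, as 3 no longer passed and 2 others did. Without niacin 8, 2 pairs no longer passed and 1 other did.

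**Figure D4:**
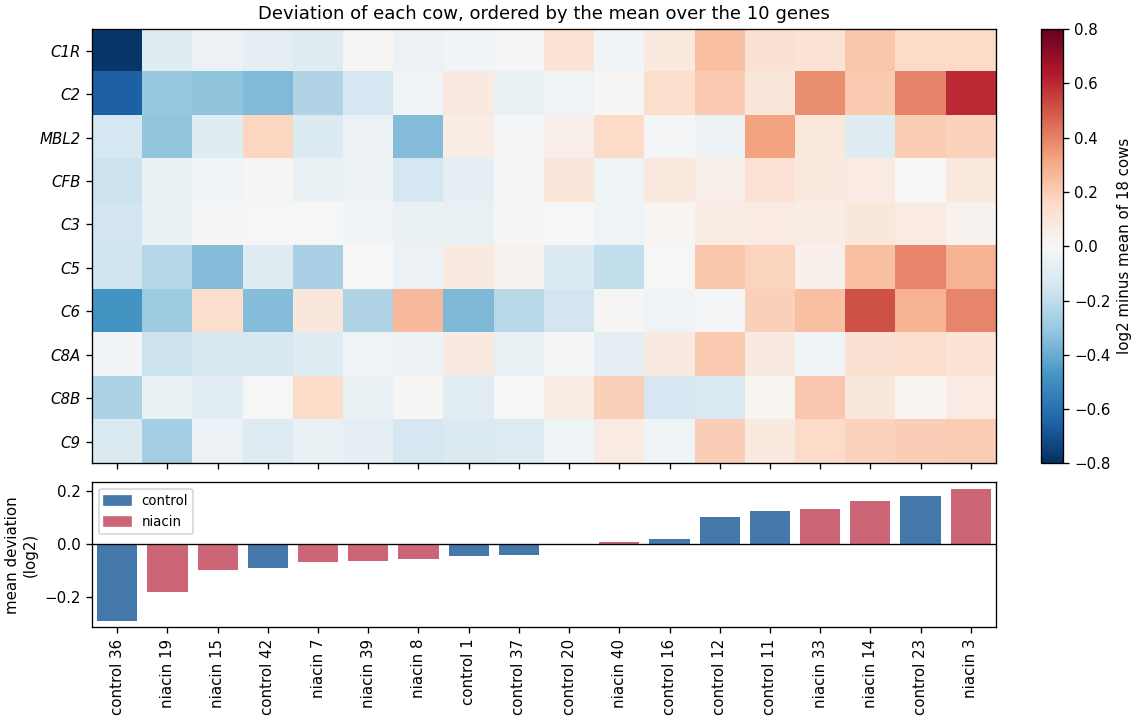
Upper panel, log2 value of each complement gene minus its mean over 18 cows, red above and blue below, with cows ordered by their mean over the 10 genes. Lower panel, that mean per cow, from -0.29 in control 36 to 0.21 in niacin 3, with control cows in blue and niacin cows in red.

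The size of r differed between pairs, and the early pathway genes C3, C1R and CFB had some of the highest values. C3 with C1R had r = 0.87 and rho = 0.82 (permutation p = 1e-05, the smallest that 100000 resamples can give, and 0.00015 adjusted). Without the 2 cows farthest from the median of C3, r was 0.78. C3 with CFB had r = 0.83 and rho = 0.79 (permutation p = 2e-05, adjusted 0.000225), and 0.76 without such cows. C2 joined C1R at r = 0.79 and rho = 0.86 (permutation p = 1e-05, adjusted 0.00015), and 0.80 without the 2 cows farthest in C2.

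C5 and C8A made a second close pair, and C2 was correlated with both. C5 with C8A had r = 0.87 and rho = 0.86 (permutation p = 1e-05, adjusted 0.00015), with 0.77 in control and 0.95 in niacin cows and 0.85 without the 2 cows farthest in C5. C5 with C2 had r = 0.79 and rho = 0.83 (permutation p = 0.00011, adjusted 0.000707). C9 was correlated with 8 of its 9 partners, the most of any gene, with C8B as the exception at r = 0.40 (adjusted p = 0.121). Its r with C2 was 0.78 and its rho 0.79 (permutation p = 1e-04, adjusted 0.000707). C9 with C6 had r = 0.72 and rho = 0.69 (permutation p = 0.001, adjusted 0.00353), and r = 0.82 without niacin 8.

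C8B and MBL2 had the fewest called partners, 1 and 2 by Pearson's r and 1 and 4 by Spearman's rho. The median r with the other genes was 0.40 for C8B and 0.46 for MBL2, as it was for C8A. C8B was correlated with 1 of 9 partners, C6, at r = 0.55 and rho = 0.62 (permutation p = 0.0177, adjusted 0.0331). This r was 0.40 without the 2 cows farthest in C6 and 0.43 without control 36 (adjusted permutation p = 0.119). The niacin minus control difference was 0.25 for C6 and 0.11 for C8B, and r over all cows includes it. With group means removed r was 0.43. It was 0.47 in control and 0.39 in niacin cows (unadjusted exact permutation p = 0.201 and 0.294). With those means removed, C8B was closest to MBL2 (r = 0.62, against 0.30 over all cows), C3 (0.56 against 0.48) and CFB (0.53 against 0.38). The part of the group difference in the called pair was not tested. MBL2 was correlated with CFB (r = 0.60, rho = 0.60, permutation p = 0.00897, adjusted 0.0192) and with C9 (r = 0.56, rho = 0.57, adjusted 0.0276). Neither pair passed without niacin 8, where r was 0.49 with CFB and 0.53 with C9 (adjusted permutation p = 0.0699 and 0.0537). Without the 2 cows farthest in CFB or in C9, r was 0.43 and 0.38.

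Pearson's r of C1R with the terminal pathway genes moved in both directions when control 36 was left out. C8A with C1R had r = 0.46 and rho = 0.83 over 18 cows (permutation p = 0.0425 and 1e-05, adjusted 0.0708 and 0.000257). Without control 36, r was 0.88. C5 with C1R had r = 0.55 and rho = 0.83 (adjusted permutation p = 0.0222 and 0.000257), and r = 0.81 without that cow. C9 with C1R went from 0.58 to 0.85. C6 with C1R went from 0.60 to 0.54, where it no longer passed (adjusted permutation p = 0.00661 and 0.0506), and C8B with C1R from 0.48 to 0.03.

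Genes that lie side by side did not share one pattern. In the RefSeq gene table (assembly ARS-UCD2.0) C8A and C8B are neighbours with no annotated gene between them, as are CFB and C2, and C1R and C1S. C8A with C8B had r = -0.12 and rho = -0.021 (permutation p = 0.625, adjusted 0.639). Removing the group means gave 0.07, and the groups gave -0.16 in control and 0.28 in niacin cows, a difference that was not tested. CFB with C2 had r = 0.63 and rho = 0.55 (permutation p = 0.00496, adjusted 0.0124), and r = 0.48 without control 36 (adjusted permutation p = 0.0907). C1R with C1S had r = 0.72 and rho = 0.87 (permutation p = 1e-05 and 2e-05, adjusted over 7 partner pairs 7e-05 and 0.00014).

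Subunits and partners that act in 1 complex were not correlated past the threshold in the other 6 of these 7 partner pairs. C8G had r = 0.13 with C8A and -0.20 with C8B. C7 had 0.39 with C6 and 0.35 with C9, and MBL2 had 0.18 with MASP1 and 0.41 with MASP2. Their adjusted permutation p lay between 0.252 and 0.615. In control and niacin cows apart, r was 0.33 and 0.39 for MBL2 with MASP1, and 0.27 and 0.35 with MASP2. For C7 it was 0.17 and 0.63 with C6, and 0.53 and 0.19 with C9. For C8G it was -0.13 and 0.002 with C8A, and -0.20 and 0.07 with C8B. These differences between groups were not tested.

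**Figure D5:**
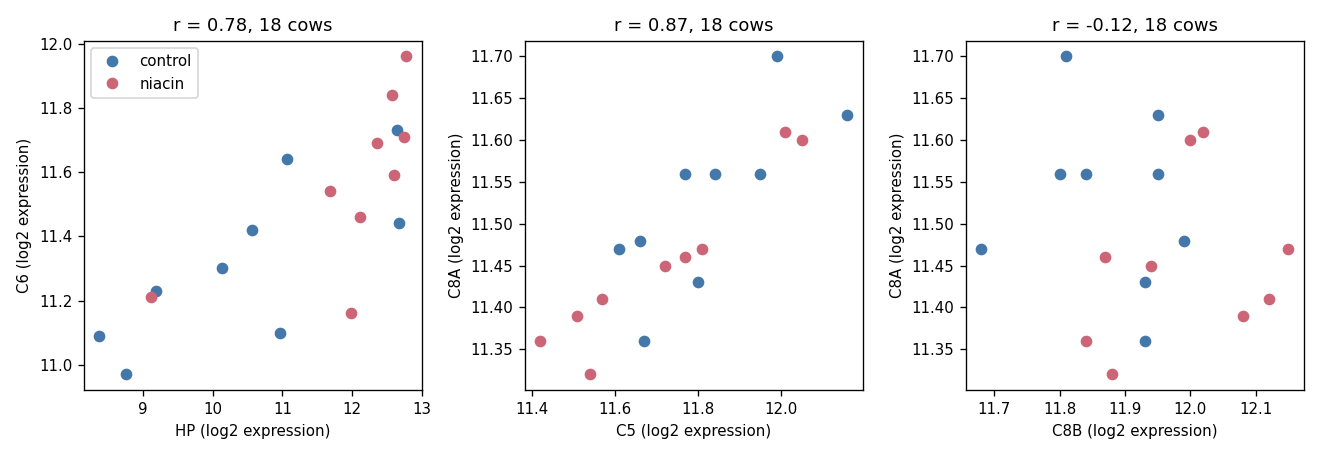
Log2 expression in each cow of C6 against HP, C8A against C5 and C8A against C8B, control in blue and niacin in red. The first 2 plots rise in both groups, with r of 0.78 and 0.87, while the third shows no slope over 18 cows (r = -0.12).

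Haptoglobin, which varied 21.3-fold between cows, was set beside the 10 genes as an acute phase measure, together with 9 cell type marker lists (100 relations). HP was correlated past the adjusted threshold with C6 alone of the 10, at r = 0.78 and rho = 0.82 (permutation p = 0.00023 and 0.00014, adjusted 0.023 and 0.014). Without the 2 cows farthest in HP it was 0.69, and it was 0.77 in control and 0.68 in niacin cows. The share of other tested or equally bright probe sets correlated with HP was not counted. The call for C6 thus has no background beside it and is not particular to C6 by any test. For C3 r was 0.53 and for C9 0.52 (adjusted permutation p = 0.350 and 0.363), while C5 had 0.17, C8A 0.13 and MBL2 -0.06. In control cows alone C9 had 0.89 and C3 0.79 with HP, against 0.29 and 0.27 in niacin cows, of which 8 of 9 had HP at 11.68 or above. That difference between groups was not tested. With HP removed by regression, 25 of the 45 pairs passed.

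No marker list was correlated past the adjusted threshold with any of the 10 genes. The endothelial list came closest, with 10 of 10 values above 0 and a range of 0.17 to 0.67 (C9 at 0.67, C6 at 0.66 and C3 at 0.60, adjusted permutation p = 0.089, 0.089 and 0.155). C8B had 0.65 with the macrophage list (adjusted permutation p = 0.089). The hepatocyte list, whose mean ran from 11.92 to 12.25 in control and from 11.92 to 12.23 in niacin cows, had a median r of -0.11 with the 10 genes, from -0.37 to 0.47. Its r differed by group, at -0.84 in control and 0.54 in niacin cows for C9, and -0.04 and 0.81 for MBL2. Control 12 and control 23 had the lowest hepatocyte means of the controls, 11.92 and 11.96. Both also had the highest control value of C9, 12.57, and r without these cows was not computed. For C6, r with this list was below 0 in both groups (-0.48 and -0.07). For C8B (0.05 and 0.55) and CFB (0.05 and 0.51) it was above 0 in both. These differences between groups were not tested.

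Properties of the arrays moved with the genes as well. All 10 genes had an r above 0 with the SD of the array, at a median of 0.47. The permutation test adjusted over 20 relations called 3 of 10 by Pearson's r and 0 by Spearman's rho. The 3 were C6 (0.67), C2 (0.64) and C1R (0.54). The share of other tested or equally bright probe sets correlated with an array property was not counted. These counts, and those for the slope below, thus have no background beside them and are not particular to these genes by any test. The slope of each array's deviations over the logarithm of gene span ran from -0.067 to 0.064 log2 units per 10-fold. Its mean was 0.015 in control and -0.015 in niacin cows, with ranges that overlapped, a difference that was not tested. By Pearson's r the slope was correlated with C5 (0.66) and C8A (0.59; adjusted permutation p = 0.0267 and 0.0422), and again with 0 of the 10 by Spearman's rho. With the slope removed, the niacin minus control difference was -0.10 for C5 and -0.06 for C8A, against -0.12 and -0.08. With the array SD removed by regression 13 of 45 pairs passed in place of 24, at a median r of 0.39, and with the slope removed 24 did. Removing the array SD gave r of 0.81 for C3 with C1R, 0.84 for C5 with C8A and -0.38 for C8A with C8B. The r of single pairs with the slope removed, C5 with C8A among them, is not given here.

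The 3 genes whose pattern was most like each of the 10 were found by Pearson's r over 18 cows after removal of group means, among tested probe sets with 1 symbol, and are given as a description with no test. For C1R they were SERPING1 (0.91), which encodes the C1 inhibitor, TMEM63A (0.88) and C3 (0.87). For C3 they were C1R (0.87), SERPING1 (0.86) and S1PR3 (0.85). C2 was closest to CX3CL1 (0.88), a chemokine gene, ITGA1 (0.86) and C5 (0.85), and CFB to AKT2 (0.90), SERPINF1 (0.90) and CHIA (0.89).

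MBL2 had OS9 (0.82), ZNF789 (0.79) and SIRT2 (0.78) as its nearest genes. In the terminal pathway, C5 was nearest to HELB (0.87), SORL1 (0.86) and C8A (0.86). C6 was nearest to CTSD (0.89), a lysosomal protease gene, PLG (0.88), which encodes plasminogen, and CREG1 (0.87). C8A was nearest to C5 (0.86), STAT3 (0.86), the transcription factor of interleukin 6 signalling, and ADGRG6 (0.82). STAT3 also led for C9 (0.85), before AMOT (0.83) and TMEM127 (0.82). C8B was nearest to ORAI1 (0.79), a calcium channel gene, and to ARNTL (0.77) and CRY1 (0.76), which encode circadian clock proteins. Another of the 10 genes was among the 3 nearest for C1R, C3, C2, C5 and C8A.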

How the data were processed

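The deposited log2 values were made by the authors with RMA in Affymetrix Expression Console, per the submitters' processing notes. RMA corrects background, quantile-normalizes, which hides a shift common to most genes, and summarises each probe set. Its version is not given in the sources used here. In all 22 cows were studied, per the labels' protocols, and of 11 RNA samples per group the 2 with the lowest integrity number were left out. The same protocols state an RNA integrity number of 7.2 ± 0.5 (mean and SD). Groups came from the sample titles, and the labels give no batch or pairing.

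Analysis used limma 3.58.1 (R 4.3.3) and Python 3.11.15, with scripts tested on simulated data. The share of 0.25 of probe sets with the lowest mean over 18 arrays was left out (6083, mean up to 4.35). The other 18250 entered limma's lmFit and eBayes as niacin minus control without a covariate, with p-values adjusted over all of them by Benjamini-Hochberg, two-sided. The exact test used all 48620 splits of the cows on the difference of means. Correlations over 18 cows used 100000 resamples, and those over 9 cows all orders. A list score is the mean log2 value of its measured genes. The platform annotation gives 18457 probe sets 1 symbol, 688 several and 5188 none, and gene span was known for 97.5% of tested probe sets with 1 symbol.

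The genes and lists were chosen with earlier results of these data known. Besides the 10 genes, the text names the 3 genes most like each, the 4 other complement genes, 3 acute phase genes beside HP and 2 regulators with the smallest p, 5 partners, and the highest and lowest marker of a list. Alternatives were other filters, variance models, normalizations and covariates, and leaving out each cow. Promoter and protein sequences were not analysed here.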

Additional observations from a re-analysis of the deposited data

Results flagged for a closer look

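In 8 of 70 groups of 9 values (the named genes, marker list means and the array SD), 1 cow lay apart from the rest, with a gap to its nearest neighbour of more than 0.493 of the group's range. Chance gives about 1 in 20, or 3.5, and the values come from the same 18 cows. Of the 20 groups of the 10 complement genes, 1 was among these, C1R in control 36 at 11.23 against 11.94 to 12.25 in the other controls. In control 12, C7 was at 9.35 against 6.45 to 7.41, and the stellate and fibroblast markers had a mean of 8.08 against 6.04 to 6.97. MASP1 was at 10.30 in control 23 against 9.32 to 9.75, and the red cell markers of that cow were at 5.65 against 4.87 to 5.21. HP was at 9.12 in niacin 39 against 11.68 to 12.78 in the other niacin cows. Niacin 8 held the highest neutrophil mean, 6.28 against 5.13 to 5.62, and the highest red cell mean, 7.23 against 4.96 to 5.26.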

How the results depend on the processing

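No paired analysis was possible because the labels give no pairing of cows. The count of probe sets past an adjusted limma p of 0.05 was 0 and stayed there in 29 of 30 alternatives, with 1 without niacin 39 (range 0 to 1 on leaving out 1 cow). The count of the 10 genes with an unadjusted limma p under 0.05 was 1. It was 2 with array weights, and 0 after centring each array on its median, with the leukocyte score or HP as a covariate, or without control 1 and niacin 8 together. It ranged from 0 to 1 on leaving out 1 cow, being 0 without control 1, 20, 36, 37 or 42 or niacin 3, 7, 8, 14, 15 or 33. The median log2 difference of the 10 genes was -0.087 with HP as a covariate and -0.045 to 0.025 on leaving out 1 cow. The signs of C9, C2 and C1R were not settled. With HP as a covariate they were at -0.087, -0.13 and -0.088, and C9 was at -0.016 after a second quantile normalization. On leaving out 1 cow C9 ran from -0.018 to 0.043, C2 from -0.042 to 0.089 and C1R from -0.056 to 0.071. The signs of C5, C6, C8A, C8B, CFB and MBL2 were the same in all 29 alternatives run for each. C3, at 0 in the main fit, had no sign to compare and ran from -0.043 to 0.0085 over its alternatives. The 24 called pairs became 40 with arrays centred on the median, 16 after a second quantile normalization, 13 in control cows only, 15 in niacin cows only (fewer cows) and 13 with the array SD removed, a choice made after the data were seen, as was removal of the gene length trend. With group means removed 34 pairs passed, at a median r of 0.61 and with 45 above 0. C5 with C6 then went from 0.46 to 0.70 and C6 with C8A from 0.41 to 0.69, while C6 with C8B went from 0.55 to 0.43. On leaving out 1 cow the called pairs ran from 23 to 28. The median r of 0.55 was 0.46 after a second quantile normalization, 0.65 with centring, 0.66 in control cows, 0.69 in niacin cows and 0.39 with the array SD removed, and 0.53 to 0.58 on leaving out 1 cow. The causes of these shifts were not tested. The alternative of averaging several probe sets of a gene gave no value, since each of the 10 genes had 1.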
